A study of Mus musculus with 18 samples.

Results

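Transcripts of dopamine receptors and of the signalling proteins that act downstream of them in striatal spiny neurons were measured in MPTP-treated and saline-treated mice. The genes were chosen by symbol, with earlier results of these data known, and were Drd1, Drd2, Adora2a, Gpr6, Gnal, Adcy5, Pde10a and Ppp1r1b. Of these 8 genes, 7 had probe sets in the array annotation used, 17 probe sets among the 45101 on the array and 7 genes among 18194. Adora2a, the adenosine receptor gene of indirect-pathway neurons, had no probe set under its name and was not analysed here. Male C57BL/6J mice aged 14 weeks received intraperitoneal MPTP or saline, and each region of each treatment gave 3 arrays, described as biological replicates. The MPTP groups were striatum, midbrain and frontal cortex of mice given 30 mg/kg MPTP (calculated as free base) by 5 daily injections and killed 4 days after the last. The saline groups were the same regions of mice given saline, and all 6 groups shared strain, sex and age and carried no engineered allele. MPTP is a toxin whose metabolite enters dopaminergic neurons through the dopamine transporter, and it serves as a model of dopamine loss rather than of the slow human disease.

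Spiny projection neurons make up most of the neurons of the rodent striatum and fall into a direct pathway, which carries the D1 dopamine receptor, and an indirect pathway, which carries the D2 dopamine receptor and the adenosine receptor encoded by Adora2a. The D1 receptor stimulates adenylyl cyclase and the D2 receptor inhibits it. In these neurons the stimulatory G protein is Golf, whose alpha subunit is encoded by Gnal, and the main cyclase is type 5, encoded by Adcy5. Pde10a encodes a phosphodiesterase that degrades cyclic AMP and cyclic GMP. Ppp1r1b encodes DARPP-32, which inhibits protein phosphatase 1 once it has been phosphorylated by protein kinase A. Gpr6 encodes a receptor without an established endogenous ligand that raises cyclic AMP and is found in indirect-pathway neurons. Dopaminergic neurons of the midbrain carry D2 receptors of their own, which act as autoreceptors.

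Expression was read as log2 values that the authors had normalised across arrays by RMA, so a step of 1 is a doubling of the summarised probe signal. Where a gene had several probe sets, the one with the highest average stood for it. Genes entered the test when the average of any region was 5.18 or more, 5.18 being the median of all values. Values under 5.18 were not shown to be above background. All 7 genes passed that filter in striatum, and 14 of their 17 probe sets did. Array medians lay between 5.14 and 5.21 and interquartile ranges between 3.37 and 3.65, with the lowest in saline midbrain replicate 2. The arrays matched their regional labels by marker genes: the mean of 9 cortical glutamatergic neuron genes was 8.73 to 8.94 in the cortical arrays against 5.68 to 7.06 in striatum and 5.91 to 6.36 in midbrain. The mean of 7 dopaminergic neuron genes was 8.50 to 9.04 in the midbrain arrays against at most 6.21 elsewhere. The midbrain arrays differed in the mean of 9 hypothalamic and thalamic genes, which was 7.45 on saline replicate 1 against 6.66 to 6.86 on the others. The cause was not tested. Tissue was analysed in bulk, so fewer cells of a type and less RNA per cell cannot be told apart.

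The 3 receptor genes had the largest differences between striatum and frontal cortex in saline mice, and their promoters are shown for that reason. RefSeq start sites on mouse build GRCm38.p6 were found for 5 of the 8 genes, 7 promoters in all, each running from 250 bases before to 50 bases after the start. The Gpr6 promoter is chr10:41072241-41072540 on the minus strand, the Drd2 promoter is chr9:49340153-49340452 on the plus strand, and the Drd1 promoter shown, the first of a listed pair, is chr13:54055609-54055908 on the minus strand. Capitals mark a cyclic AMP response element (TGACGTCA) or a GC box (GGGCGG, or CCGCCC where it lies on the other strand).
Gpr6: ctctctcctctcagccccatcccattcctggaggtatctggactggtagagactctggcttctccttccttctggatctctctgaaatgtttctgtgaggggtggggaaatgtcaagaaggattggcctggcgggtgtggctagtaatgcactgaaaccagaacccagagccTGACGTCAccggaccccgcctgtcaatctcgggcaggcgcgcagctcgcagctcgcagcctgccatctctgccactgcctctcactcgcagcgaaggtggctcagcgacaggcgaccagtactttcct
Drd2: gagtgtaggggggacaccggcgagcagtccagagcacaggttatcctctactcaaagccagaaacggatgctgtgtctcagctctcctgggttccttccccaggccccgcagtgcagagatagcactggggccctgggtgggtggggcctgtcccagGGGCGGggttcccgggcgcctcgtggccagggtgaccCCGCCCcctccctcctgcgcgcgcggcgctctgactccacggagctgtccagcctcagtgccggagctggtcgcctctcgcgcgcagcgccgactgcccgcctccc
Drd1: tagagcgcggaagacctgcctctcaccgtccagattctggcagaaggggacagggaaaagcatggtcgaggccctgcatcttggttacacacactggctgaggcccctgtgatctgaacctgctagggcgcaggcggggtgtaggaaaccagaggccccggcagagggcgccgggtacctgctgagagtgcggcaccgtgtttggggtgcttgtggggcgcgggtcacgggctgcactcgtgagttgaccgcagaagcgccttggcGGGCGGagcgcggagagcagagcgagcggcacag

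The Gpr6 sequence holds a full cyclic AMP response element whose first base lies at -78 from the start, a match found in 1.79% of the 32851 promoters of the same length in the table when both strands are read. Each strand of that palindrome also holds the half-site TGACG, which is present in 20.8% of promoters. The Drd2 sequence holds 2 GC boxes, at -93 and at -56 on the other strand, and the Drd1 sequence holds 1 at position 17 after the start. GC boxes were found in 35.7% of all promoters, and the Gpr6 sequence has none. TATAAA, on either strand, was found in none of the 7 promoters and in 13.6% of all. The Drd2 and Drd1 sequences contain 70.3% and 65.7% G and C, against 58.7% for Gpr6 and a median of 52.7% over all promoters. The promoter of Adcy5 and those of Pde10a hold GC boxes too, 4 in Adcy5 and 1 in each of the 2 of Pde10a, and none of them holds the full element.

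In saline mice all 7 genes were higher in striatum than in either other region. The excess over frontal cortex ran from 4.39-fold for Gnal to 27.9-fold for Drd1, and was at least 33.3-fold for Drd2 and at least 20.6-fold for Gpr6, whose cortical values all lay below the filter value. The excess over midbrain ran from 4.14-fold for Gnal to 29.7-fold for Ppp1r1b, with 62.5-fold for Drd1 as measured, although 2 of its 3 saline midbrain values lay below the filter value. Limma with Benjamini-Hochberg adjustment over 11741 genes called all 7 higher than in cortex, where 20.5% of genes were called higher, and all 7 higher than in midbrain, where 24.8% were. The highest adjusted p among these 14 differences was 5.36e-15. The genes were listed as striatal signalling genes, so a high striatal level is part of what the list describes. Gpr6 also passed the filter through striatum alone. No array of another region overlapped a striatal array for any of the 7, in either treatment.

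**Figure D1:**
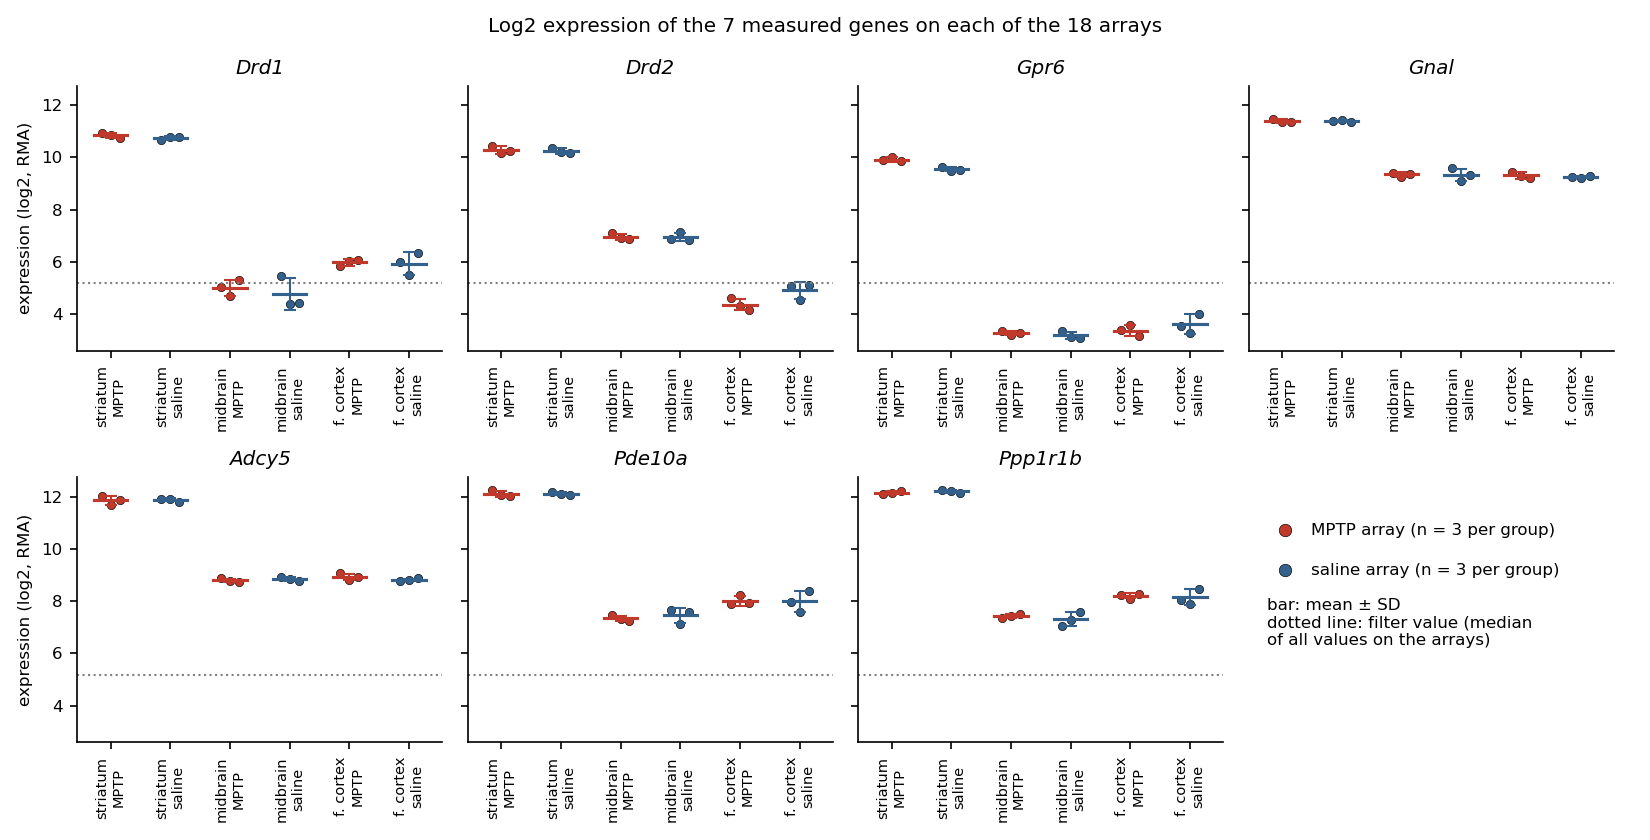
Log2 expression (vertical axis) of the 7 measured genes on each of the 18 arrays, by region and treatment, with the mean and SD of 3 arrays per group and the filter value of 5.18 as a dotted line. The striatal arrays stand above all others for every gene. Gpr6, which was not called after MPTP, is the gene whose MPTP and saline striatal arrays do not overlap. How many of all tested genes lacked overlap was not counted, so nothing is read from it.

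Drd1, the receptor gene of direct-pathway neurons, read 10.94, 10.85 and 10.75 in MPTP striatum, against 10.67, 10.77 and 10.78 in saline striatum. In frontal cortex it read 5.84, 6.04 and 6.08 in MPTP mice, against 5.99, 5.49 and 6.35 in saline mice. In midbrain it read 5.04, 4.69 and 5.31 in MPTP mice, against 5.47, 4.41 and 4.44 in saline mice. The order was striatum, cortex, midbrain, with no overlap between regions within a treatment, while 4 of the 6 midbrain values lay below the filter value. Saline striatum exceeded saline cortex by 4.80 (SE 0.21) and saline midbrain by 5.97 (SE 0.21) on the log2 scale. A second probe set of Drd1 gave 5.03 over cortex and at least 5.54 over midbrain, where its 3 saline values lay below the filter value.

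Drd2, the receptor gene of indirect-pathway neurons, had another order. It read 10.44, 10.15 and 10.24 in MPTP striatum, against 10.36, 10.20 and 10.15 in saline striatum. In midbrain it read 7.10, 6.92 and 6.87 in MPTP mice, against 6.89, 7.14 and 6.84 in saline mice. In frontal cortex it read 4.61, 4.32 and 4.17 in MPTP mice, against 5.08, 4.53 and 5.12 in saline mice. The midbrain thus lay between striatum and cortex, and all 6 cortical values lay below the filter value. Saline striatum exceeded saline midbrain by 3.28 (SE 0.14), a 9.72-fold difference. Against saline cortex the measured difference was 5.32 (SE 0.14), and at least 5.06 with the cortical values set to the filter value.

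Gpr6 was measured above the filter value in striatum alone. It read 9.89, 10.01 and 9.85 in MPTP striatum, against 9.64, 9.49 and 9.50 in saline striatum, and 3.10 to 4.02 on the 12 other arrays. Its saline striatal mean was at least 4.37 log2 units, or 20.6-fold, above both other regions, with measured differences of 5.93 over cortex and 6.35 over midbrain (SE 0.15 each).

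Of the genes that act after the receptors, Gnal and Adcy5 had the smallest regional differences. Gnal ranged from 11.34 to 11.47 in MPTP striatum and from 11.35 to 11.41 in saline striatum, against 9.11 to 9.58 on the 12 arrays of midbrain and cortex. Saline striatum exceeded cortex by 2.14 and midbrain by 2.05 (SE 0.09 each), and a second Gnal probe set gave 2.32 and 2.21. Adcy5 ranged from 11.70 to 12.04 in MPTP striatum and from 11.81 to 11.91 in saline striatum, against 8.75 to 9.06 elsewhere. Its saline differences were 3.06 over cortex and 3.03 over midbrain (SE 0.08 each), so that for both genes cortex and midbrain stood close together. With the mean over all probe sets of a gene the saline differences of Adcy5 were 0.82 over cortex and 0.89 over midbrain, and those of Gnal 1.48 and 1.39, all still called. Another Adcy5 probe set, 1447696_x_at, gave 0.39 over cortex and 0.49 over midbrain. It is a far smaller step than that of the probe set used. The remaining pair of Adcy5 probe sets read at most 4.33 on any array.

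Pde10a and Ppp1r1b had larger differences than Gnal and Adcy5, and the same order of regions as Drd1. Pde10a ranged from 12.005 to 12.24 in MPTP striatum and from 12.06 to 12.18 in saline striatum. It ranged from 7.24 to 7.46 in MPTP midbrain and from 7.14 to 7.65 in saline midbrain, and from 7.89 to 8.23 in MPTP cortex and from 7.60 to 8.39 in saline cortex. Saline striatum exceeded cortex by 4.12 and midbrain by 4.65 (SE 0.14 each). Ppp1r1b ranged from 12.09 to 12.22 in MPTP striatum and from 12.12 to 12.27 in saline striatum, against 7.04 to 7.59 on the 6 midbrain arrays and 7.91 to 8.49 on the 6 cortical arrays. Its saline differences were 4.05 over cortex and 4.89 over midbrain (SE 0.12 each). In the fit over 23992 probe sets all 14 tested probe sets of the 7 genes were called higher in saline striatum than in cortex and than in midbrain, where 20.9% and 25.6% of all probe sets were. The Gpr6 probe set and Pde10a 1432490_a_at passed the filter through striatum alone. The filter also removed the Adcy5 and Gnal probe sets that were low in every region, so this count was in part fixed by the filter.

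Between saline midbrain and saline cortex 5 of the 7 genes were called, where 51.3% of all genes were. Drd2 was higher in midbrain by 2.04 (SE 0.14, adjusted p = 7.37e-12), and by at least 1.77 with cortex set to the filter value. Drd1 was lower in midbrain with a measured difference of -1.17 (SE 0.21, adjusted p = 5.79e-05), although 2 of its 3 saline midbrain values lay below the filter value. Ppp1r1b at -0.84 (SE 0.12) and Pde10a at -0.53 (SE 0.14) were lower in midbrain too. Gpr6 differed by -0.42 (adjusted p = 0.0211) with both regions below the filter value, and lost its call without cortical saline replicate 3 (-0.22), midbrain saline replicate 2 (-0.39) or midbrain saline replicate 3 (-0.37). Gnal at 0.08 (95% interval -0.10 to 0.27) and Adcy5 at 0.03 (-0.14 to 0.20) were not called, and Gnal passed without midbrain saline replicate 2 (0.20, adjusted p = 0.0458). Among the probe sets, where 47.7% were called in either direction, a second Drd1 probe set was called lower in midbrain, where all 3 of its values lay below the filter value and the difference is at least 0.51 in size, and 4 of the 5 Pde10a probe sets were called lower in midbrain.

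After MPTP none of the 7 genes was called in striatum, the region that receives the dopaminergic axons. The adjusted p was lowest for Gpr6, at 0.199, and 2.1% of all genes were called there by limma. Gpr6 differed by 0.37 (SE 0.15), or 1.30-fold with a 95% interval of 1.05 to 1.603, at an unadjusted p of 0.0192. All 3 MPTP striatal values of Gpr6 were above all 3 saline values, and it was the one gene of the 7 whose striatal groups did not overlap. How many of all tested genes lacked overlap there was not counted, so nothing is read from this separation of Gpr6. Over the alternative settings its difference stayed between 0.33 and 0.42. It passed in 1 of them, the fit on the striatal arrays alone (adjusted p = 0.0141).

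The other 6 genes had striatal differences between -0.05 and 0.10. Drd1 differed by 0.10 (95% interval -0.33 to 0.54) and Drd2 by 0.04 (-0.24 to 0.33). Gnal differed by 0.01 (-0.18 to 0.19) and Adcy5 by -0.02 (-0.18 to 0.15), which were the narrowest intervals. Pde10a differed by -0.01 (-0.31 to 0.29) and Ppp1r1b by -0.05 (-0.30 to 0.20). For Drd2 the interval runs from a 0.845-fold to a 1.26-fold level, and a change within it could not be told from none with 3 arrays per group.

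**Figure D2:**
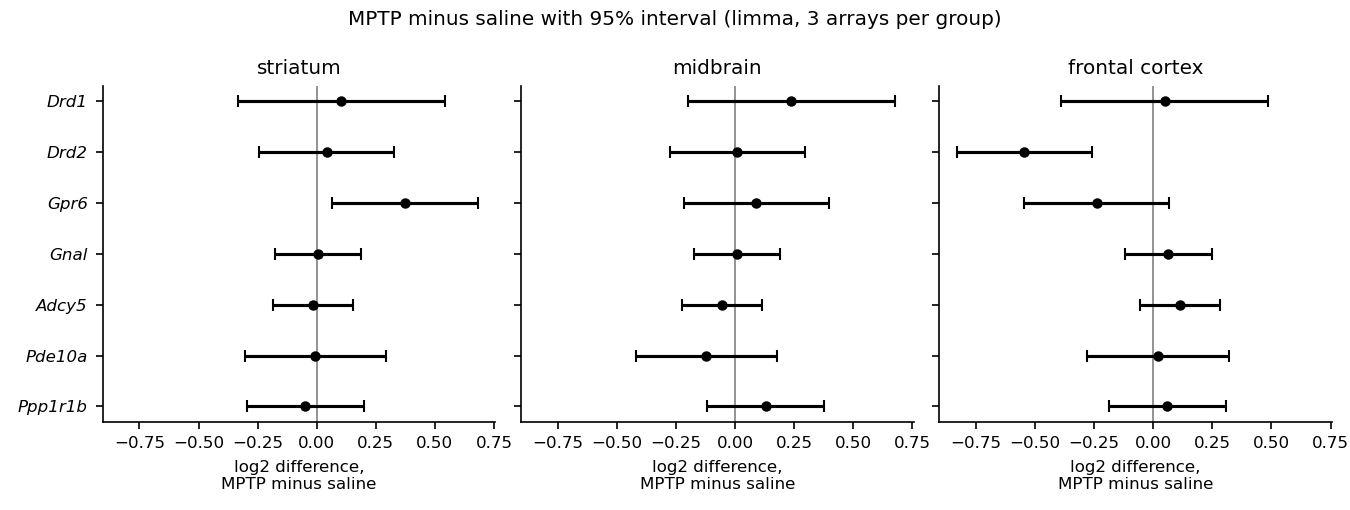
MPTP minus saline difference on the log2 scale (horizontal axis) for the 7 genes in striatum, midbrain and frontal cortex, as points with 95% intervals from limma over 3 arrays per group. The intervals of Gpr6 in striatum (0.07 to 0.68) and of Drd2 in frontal cortex (-0.83 to -0.26) leave out 0, and neither gene was called after adjustment over all genes.

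In midbrain none of the 7 genes was called either, where 2.54% of all genes were. Drd1 had the largest difference, 0.24 (95% interval -0.20 to 0.68), with 2 of 3 values of each group below the filter value. Saline replicate 1 read 5.47 against 4.41 and 4.44 in the other saline arrays, and without it the difference was 0.59 (adjusted p = 0.0366). A second Drd1 probe set gave -0.13. Ppp1r1b differed by 0.13, Pde10a by -0.12, Gpr6 by 0.09, Adcy5 by -0.05 and Gnal by 0.01, each with overlapping groups. Drd2 differed by 0.01 (95% interval -0.28 to 0.29).

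Genes that mark dopaminergic neurons were read beside Drd2 in midbrain. Of 7 tested genes of that list none was called, with differences of -0.82 to 0.22 and a median of -0.23. Th, tyrosine hydroxylase, read 8.09, 8.04 and 7.94 in MPTP midbrain, against 8.97, 8.92 and 8.64 in saline midbrain, a difference of -0.82 (SE 0.29, unadjusted p = 0.0089, adjusted p = 0.133). Slc6a3, the dopamine transporter, read 9.029, 8.997 and 9.061 in MPTP midbrain, against 9.67, 9.38 and 9.15 in saline midbrain, a difference of -0.37 (SE 0.15, adjusted p = 0.208). In both genes every MPTP array was below every saline array, and neither passed the adjustment. Slc18a2, the vesicular monoamine transporter, differed by -0.23 (adjusted p = 0.594) and Ddc, aromatic amino acid decarboxylase, by -0.05 (adjusted p = 0.913), both with overlapping groups. Aldh1a1, an aldehyde dehydrogenase of a subset of these neurons, lay the other way, at 11.33, 11.28 and 11.35 in MPTP midbrain, against 11.18, 11.02 and 11.11 in saline midbrain (0.22, adjusted p = 0.17), with no overlap. In striatum Th differed by -0.40 (adjusted p = 0.515) and Ddc by 0.37 (adjusted p = 0.192), while Slc6a3 and Slc18a2 lay below the filter value on all 6 striatal arrays. No test compared the change of Drd2 with that of Th, and how many of all tested genes lacked overlap in midbrain was not counted.

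**Figure D3:**
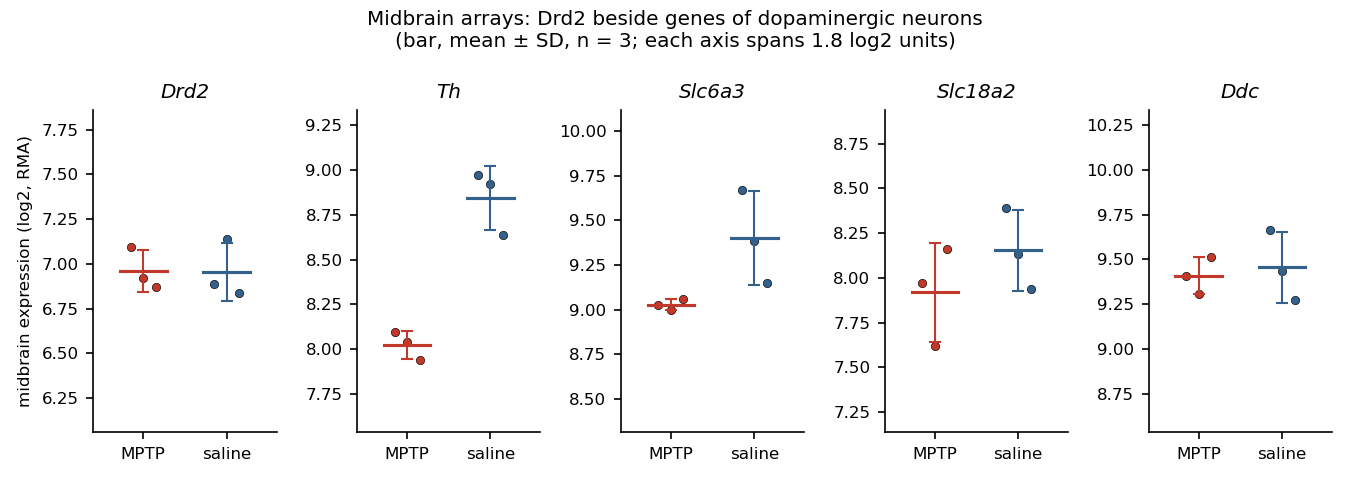
Log2 expression (vertical axis, each spanning the same range) of Drd2, Th, Slc6a3, Slc18a2 and Ddc on the 3 MPTP and 3 saline midbrain arrays, with mean and SD. MPTP and saline values of Drd2 overlap around means of 6.96 and 6.95, while the Th and Slc6a3 values of MPTP arrays all lie below those of saline arrays. None of these genes was called. Aldh1a1 of the same list, not shown, had all its MPTP values above its saline values and was not called either.

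In frontal cortex none of the 7 genes was called, where 0.0681% of all genes were. Drd2 had the lowest p, with a difference of -0.54 (SE 0.14, unadjusted p = 0.000633, adjusted p = 0.242) between values that all lay below the filter value, so no fold is given. Its groups overlapped, since saline replicate 2 at 4.53 lay below MPTP replicate 1 at 4.61. Array weights, a fit that counts noisier arrays less, gave -0.69 with an adjusted p of 0.0106. Gpr6 differed by -0.24, also below the filter value in both groups. Adcy5 differed by 0.11, Gnal by 0.06, Ppp1r1b by 0.06, Drd1 by 0.05 and Pde10a by 0.02, each with overlapping groups.

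Whether the response to MPTP differed between regions was tested as an interaction, and none of the 7 genes was called in any of the 3 pairs. The share of all genes called was 0.0596% for striatum against cortex, 0.0681% for striatum against midbrain and 0% for midbrain against cortex, where 584 genes had an unadjusted p under 0.05. Gpr6 had a striatal difference 0.61 above its cortical one (SE 0.21, adjusted p = 0.491) and Drd2 one 0.59 above (SE 0.20, adjusted p = 0.475), each with the cortical values below the filter value. Averaged over the 3 regions, with 9 arrays per treatment, none of the 7 was called either, against 9.04% of all genes. Replicate number stood for the animal in that fit, and the labels do not say how many animals gave the 9 arrays. Drd2 came nearest at -0.16 (SE 0.08, adjusted p = 0.211), and its difference was -0.23 (adjusted p = 0.0492) without cortical saline replicate 2. That average came from cortex (-0.54), where all Drd2 values lay below the filter value, against 0.04 in striatum and 0.01 in midbrain.

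The 5 probe sets of Pde10a, the phosphodiesterase gene, did not move together after MPTP. Probe set 1439618_at read 7.23, 7.35 and 7.48 in MPTP midbrain, against 6.93, 6.27 and 6.38 in saline midbrain, with no overlap. Its difference of 0.83 (SE 0.19, limma adjusted p = 0.0157) was the only call among the 14 tested probe sets of the 7 genes in any single region. Of all probe sets 4.08% were called in midbrain, 1.96% in striatum and 0.0875% in frontal cortex. The call was lost without midbrain saline replicate 2 (0.70, adjusted p = 0.0813), without midbrain saline replicate 3 (0.75, adjusted p = 0.0816) and without midbrain MPTP replicate 3 (0.77, adjusted p = 0.117).

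In striatum the same probe set read 11.74, 11.42 and 11.63 in MPTP mice, against 11.18, 10.99 and 11.07 in saline mice, a difference of 0.52 (SE 0.19, adjusted p = 0.171) with no overlap. Its cortical difference was 0.08 with overlapping groups, and the midbrain difference was not called as larger than the cortical one (interaction 0.75, adjusted p = 0.506), with 0% of probe sets called. Averaged over the regions 1439618_at differed by 0.48 (SE 0.11, adjusted p = 0.00789), where 10.8% of probe sets were called. That call held in all 23 alternatives run, each array left out in turn among them, with differences of 0.39 to 0.54.

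The other Pde10a probe sets had other values on the same arrays. In midbrain 1419390_at differed by -0.45 (adjusted p = 0.105), 1458499_at, which stands for the gene above, by -0.12, 1419389_at by 0.05 and 1432490_a_at by 0.02. In striatum 1419389_at differed by 0.30 (adjusted p = 0.251), while 1432490_a_at differed by -0.26 (adjusted p = 0.399) with every MPTP array below every saline array. All 5 were called higher in saline striatum than in both other regions, 4 of them by 3.87 to 4.43 over cortex and 4.21 to 4.90 over midbrain. The fifth, 1432490_a_at, had all its values outside striatum below the filter value and exceeded both regions by at least 4.41 in saline mice. The position of each probe set on the transcript was not used here, so the values are not assigned to isoforms.

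**Figure D4:**
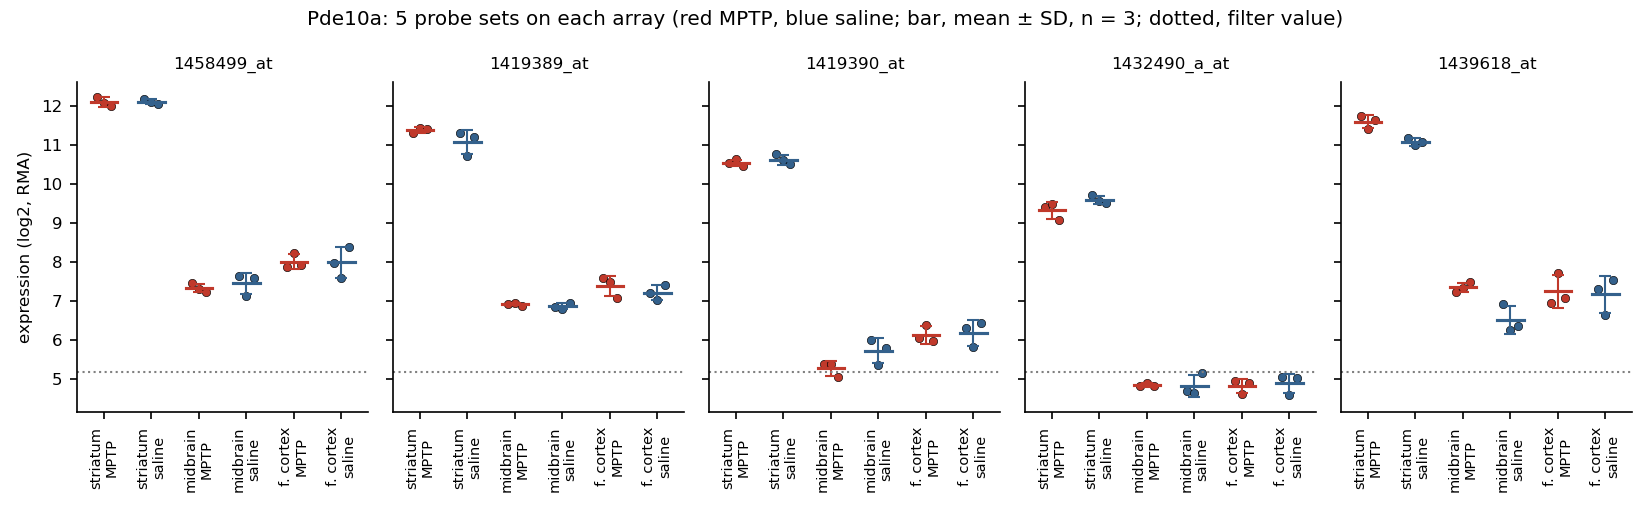
Log2 expression (vertical axis) of the 5 Pde10a probe sets on the 18 arrays by region and treatment, with mean and SD of 3 arrays and the filter value as a dotted line. In 1439618_at the MPTP arrays of striatum and of midbrain lie above the saline arrays, and in 1419390_at the midbrain means lie the other way, 5.28 in MPTP and 5.73 in saline mice.

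Among the remaining probe sets of the 7 genes, Adcy5 1447696_x_at differed by 0.26 in striatum (SE 0.11, adjusted p = 0.218), where the probe set used for Adcy5 gave -0.02. A second Gnal probe set gave 0.13 in striatum (adjusted p = 0.547), and a second Drd1 probe set gave -0.10 there, opposite in sign to the first, with neither called. The third Gnal probe set read at most 5.12 on any array and was not tested.

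Of the other dopamine receptor genes, Drd3 and Drd4 lay below the filter value on all arrays, Drd3 at 3.05 to 3.58 and Drd4 at 3.75 to 4.57, while Drd5 was not analysed here. The other genes of spiny neurons were followed in lists that leave out the 7 genes themselves. Their counts stand against 2.1% of all genes called in either direction in striatum, 2.54% in midbrain and 0.0681% in cortex. In striatum or midbrain, 1 called gene in a list of 7 to 26 is not read as a result of that list. Of 7 tested direct-pathway genes, none was called in MPTP striatum or cortex and 1 rose in midbrain, with median differences of -0.06 in striatum, 0.10 in midbrain and 0.02 in cortex. Tac1, the precursor of substance P, read 9.53, 9.81 and 9.87 in MPTP midbrain, against 9.40, 8.95 and 8.92 in saline midbrain, and rose by 0.64 (SE 0.13, adjusted p = 0.0111). In striatum Tac1 read 11.83, 11.65 and 11.83 in MPTP mice, against 11.43, 11.38 and 11.33 in saline mice, a difference of 0.39 (adjusted p = 0.118) with no overlap. The midbrain call of Tac1 was lost without saline replicate 2 (0.57), saline replicate 3 (0.56) or MPTP replicate 3 (0.58) of the midbrain, and with the mean over its probe sets (0.38, adjusted p = 0.0649). Of 3 tested indirect-pathway genes none was called, and Penk, the enkephalin precursor, differed by 0.11 in striatum (adjusted p = 0.6) and 0.13 in midbrain (adjusted p = 0.529). Penk alone of these 3 was called higher in saline striatum than in the other regions, which limits what the list says of indirect-pathway neurons. Medians of all 11741 genes were -0.03 in striatum, 0.03 in midbrain and 0.04 in cortex.

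Of 26 genes found in spiny neurons of both pathways, none was called in striatum or cortex and 1 rose in midbrain, with medians of 0.005 in striatum, -0.003 in midbrain and -0.01 in cortex. The riser was Gad1, which makes GABA in all inhibitory neurons, at 11.21, 11.31 and 11.45 in MPTP midbrain, against 10.995, 10.81 and 10.71 in saline midbrain. It rose by 0.49 (SE 0.11, adjusted p = 0.0189), and this call was lost without saline replicate 2 (0.47), saline replicate 3 (0.42) or MPTP replicate 3 (0.42) of the midbrain. The mean over its probe sets gave 0.27 (adjusted p = 0.145) for Gad1 in midbrain. All 26 genes were called higher in saline striatum than in each other region, against 20.5% of all genes for cortex and 24.8% for midbrain. The spiny neuron lists were chosen with earlier results known, and a high striatal level is part of what they describe. These regional counts are therefore no test of the lists. Of the 7 direct-pathway genes 6 were called higher than in cortex and 6 higher than in midbrain. Of the 3 indirect-pathway genes Penk was called higher than in both, while Plxdc1 was lower than in cortex (-0.58) and Ptprm, named after its value was seen, lower than in midbrain (-0.28).

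The second-messenger lists changed little. Of 22 G protein and adenylyl cyclase genes 1 fell in MPTP striatum and none was called in midbrain or cortex, with medians of -0.04, -0.01 and 0.02. It was Gng3, a G protein gamma subunit of many neurons, at 10.54, 10.59 and 10.66 in MPTP striatum, against 10.79, 10.85 and 10.88 in saline striatum. Gng3 fell by 0.24 on the log2 scale (SE 0.06, adjusted p = 0.0409), a call lost with any 1 of the 6 striatal arrays left out (adjusted p = 0.0505 to 0.156). Of 11 phosphodiesterase genes none was called in any region, with medians of 0.05, 0.04 and 0.09. The lowest p in striatum were those of Pde1a (-0.47, adjusted p = 0.165) and Pde1c (0.40, adjusted p = 0.189), which degrade cyclic nucleotides under calcium control. All MPTP values of Pde1c lay above all saline values, and those of Pde1a overlapped.

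Among 23 genes of the protein kinase A and DARPP-32 cascade, 1 rose in each region, with medians of 0.07, 0.09 and 0.07. Ppp1cb, a catalytic subunit of protein phosphatase 1, read 10.49, 10.26 and 10.54 in MPTP striatum, against 9.86, 9.91 and 9.93 in saline striatum. It rose by 0.53 there (SE 0.10, adjusted p = 0.0087), past the threshold in all 18 alternatives run. In midbrain Ppp1cb read 10.20, 10.37 and 10.57 in MPTP mice, against 10.05, 9.71 and 9.72 in saline mice, and rose by 0.55 (SE 0.10, adjusted p = 0.00795), a call lost without MPTP replicate 3 of the midbrain (0.46). In frontal cortex Csnk2a1, a catalytic subunit of casein kinase 2, rose by 0.52 (SE 0.09, adjusted p = 0.0381), at 9.01, 8.96 and 8.93 in MPTP mice, against 8.39, 8.39 and 8.55 in saline mice. The call of Csnk2a1 was lost with any 1 of the 6 cortical arrays left out, and the mean over its probe sets gave 0.25. Of 12 tested genes of receptor desensitization and receptor partners none was called in any single region. Rgs9, which speeds the turn-off of G proteins at D2 receptors, differed by -0.29 in striatum (adjusted p = 0.2) with every MPTP array below every saline array.

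Markers of other cells moved in MPTP striatum beside these values. Of all 11741 genes 152 were called higher there and 95 lower. By limma 6 of 11 microglia genes, 5 of 9 astrocyte genes, 5 of 8 oligodendrocyte genes and 2 of 5 endothelial genes rose there, and 3 of 9 activity-induced genes fell. The mean of the microglia list was 8.15 to 8.49 on the MPTP striatal arrays, against 7.91 to 8.0015 on the saline striatal arrays, and that of the astrocyte list 10.01 to 10.30, against 9.70 to 9.86. The oligodendrocyte list had means of 10.68 to 10.78 on the MPTP striatal arrays, against 10.35 to 10.43 on the saline ones. The mean of the 9 cortical glutamatergic neuron genes was 5.68, 6.56 and 6.77 on the MPTP striatal arrays, against 6.59, 6.74 and 7.06 on the saline ones, with none called and a median difference of -0.44. The activity-induced list had means of 6.99, 8.10 and 8.24 on the MPTP striatal arrays, with replicate 1 the lowest, against 8.36 to 8.89 on the saline ones. The endothelial list had means of 7.51 to 7.99 on the MPTP striatal arrays, against 7.43 to 7.51 on the saline ones, and the choroid plexus list 6.72 to 8.21 on the MPTP ones, against 8.09 to 8.38 on the saline ones. The mean of the 26 spiny neuron genes was 10.90 to 11.08 on the MPTP striatal arrays, against 10.89 to 11.02 on the saline ones. In midbrain 1 microglia gene and 3 astrocyte genes rose and 1 oligodendrocyte gene fell, and in cortex no gene of these lists was called. Of the 3 tested cholinergic neuron genes and the 2 choroid plexus genes none was called in any region, and of 9 hypothalamic and thalamic genes 1 fell in striatum and 1 in midbrain. The part of these lists in the values of Gpr6 and Pde10a was not tested.

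On single arrays of frontal cortex the 7 genes deviated together. On saline cortex replicate 3 all 7 lay above the mean of their group, by a median of 0.34, and on saline cortex replicate 2 all 7 lay below it, by a median deviation of -0.35. Saline cortex replicate 2 had an interquartile range of 3.38, the second lowest of the 18 arrays. The mean of the 26 other spiny neuron genes was 8.57 on saline cortex replicate 2 and 8.84 on replicate 3, against 8.74 on replicate 1. The share of all genes above or below their group mean on an array was not counted. Whether these deviations are particular to the 7 genes was not tested. On MPTP midbrain replicate 2 all 7 lay below their group mean too, by a median of -0.04. In striatum the median deviation of an array stayed between -0.05 and 0.09.

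**Figure D5:**
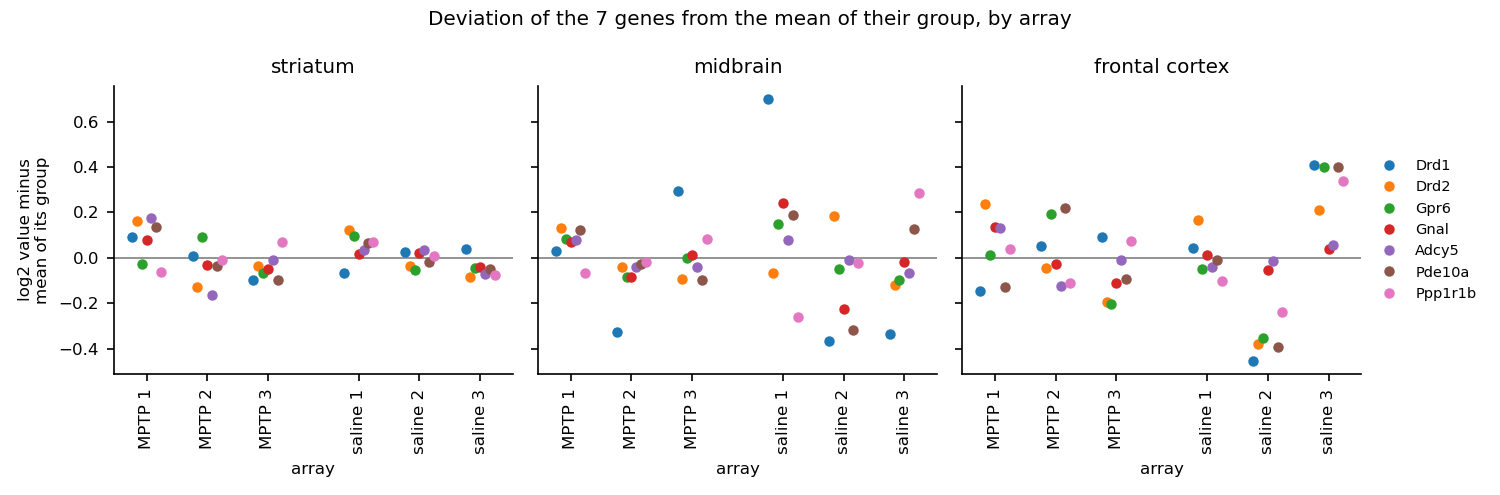
Deviation of each of the 7 genes from the mean of its group (vertical axis, log2 units) on every array (horizontal axis), by region. Saline cortex replicates 2 and 3 carry all 7 genes below and above 0, by medians of -0.35 and 0.34, and the striatal arrays stay closest to 0.

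The genes most like each of the 7 were found by the root mean square difference between centred log2 values over the 18 arrays, a measure that the step between regions dominates. Among the 7 themselves Pde10a and Ppp1r1b were closest, at 0.22, and Gpr6 and Gnal farthest apart, at 2.03. Outside the list Ppp1r1b and Pde10a were nearest to Gng7, a G protein gamma subunit found with Golf, at 0.18 and 0.20. Ppp1r1b was next nearest to Dmkn (0.31) and Pde10a to Lrrc10b (0.29). Adcy5 was nearest to Foxo1 (0.14) and to the phosphodiesterase gene Pde1b (0.17), and Gnal to Fam102b (0.13) and Adamts3 (0.14). Drd2 was nearest to Syndig1l (0.36) and Rasgrp2 (0.57), Drd1 to Lrrc10b (0.56) and Ido1 (0.60), and Gpr6 to Ido1 (0.63) and Rgs9 (0.83). These distances describe the 18 arrays and carry no test.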

How the data were processed

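Total RNA from 18 brain samples was hybridised to Affymetrix mouse expression arrays, with biotin-labelled RNA, per the labels' protocols. The deposited values are log2 expression per probe set, made by the authors with RMA per the submitters' processing notes. No version is given in the sources used here. The method brings the probe signals of all arrays to one distribution, so a shift common to all genes would not be seen. The summarised values still differed slightly between arrays, with medians of 5.14 to 5.21. Their range, 2.48 to 14.2, gave the log base, and no detection calls were used.

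Probe sets were named from the array annotation, with symbols updated by Entrez ID for 34754 of the 34958 that name 1 gene; 932 named several genes and 9211 none, and these named no gene here. Groups came from the sample labels. Limma 3.58.1 in R 4.3.3 estimated 6 group means from the 18 arrays with an intensity trend in the variances (12 residual degrees of freedom, 23.2 after moderation). Genes with a Benjamini-Hochberg adjusted p under 0.05, over 11741 genes within a contrast, were called. Filtering used the 50th percentile of all values. The mean over regions had the animal, read as treatment and replicate number, as a random block (correlation 0.00558). The probe-set fit covered 23992 probe sets. Promoters and motifs were read with Python 3.11.15 from RefSeq sequences. The fit was tested on simulated data.

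The 8 genes and the gene lists (193 entries) were chosen with earlier results of these data known. Named were the listed genes and all their probe sets, Drd3 to Drd5, 4 dopaminergic genes, up to 4 called genes per pathway list and region, or the 2 of smallest p as values where none was called (not all are printed), and the 2 genes most like each member. The number of arrays, 3 per group, limits precision. Replicate numbers are shared between groups, and the labels do not say what they mark. The reported fits within a region do not pair them. The alternatives were filters, normalization, probe-set choice, variance model, array weights, blocks, a quality covariate and each array left out.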

Additional observations from a re-analysis of the deposited data

How the results depend on the processing

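The 7 genes kept their calls and directions in both striatal comparisons of saline mice under all 17 alternatives run, but with the mean over probe sets the difference of Adcy5 from cortex was 0.82 (3.06 as reported) and that of Gnal 1.48 (2.14). After MPTP the count of genes called, 0 of 7 in each region, became 1 in striatum in the fit on the arrays of that region alone (Gpr6) and 1 in frontal cortex with array weights (Drd2). Leaving out single arrays gave 0 to 1 in midbrain (Drd1, without saline replicate 1) and 0 to 1 for the mean over regions (Drd2, without cortical saline replicate 2). No called value reversed its sign. Of the 126 values of each region, called or not, 14 uncalled ones changed sign in striatum, 13 in midbrain and 12 in frontal cortex. Samples of one treatment with equal replicate numbers in different regions deviated together in part (18 pairs, correlation -0.23 to 0.34, median 0.14). Those with unequal numbers gave an overlapping range (36 pairs, correlation -0.27 to 0.30, median -0.06). The tests within a region and of interactions did not pair samples by number, while the mean over regions used the number as an animal label. With a replicate block, fixed or random, the count stayed at 0 of 7 in every MPTP comparison; the fixed block moved the count over all genes in cortex from 8 to 17 and changed no call of the 7 genes. With the alternatives, the count over all genes moved between 69 and 745 in striatum (247 as reported), 12 and 955 in midbrain (298) and 0 and 36 in cortex (8). In striatum it was 745 with quantile normalization a second time and 69 without MPTP replicate 1; in midbrain 955 without saline replicate 1 and 12 without MPTP replicate 3. The fit on all probe sets called 470 probe sets in striatum, 978 in midbrain and 21 in cortex. The cause of these shifts was not tested. Signals below the filter value of 5.18 limit what is known of Gpr6 outside striatum, Drd2 in cortex and Drd1 in midbrain.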
